A study of Mus musculus with 2 samples.

Results

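Levels of 8 genes of the RAS pathway were read in common myeloid progenitors of the mouse: the GTPase genes Nras and Hras, the exchange factor gene Sos1, the genes of the GTPase-activating proteins Nf1 and Rasa1, the phosphatase gene Ptpn11, the ubiquitin ligase gene Cbl and the kinase gene Braf. They were chosen by name, for their place in the pathway, with earlier results of these data known. All 8 were matched by Ensembl ID among the 43346 Ensembl genes of the deposited tables. Common myeloid progenitors are bone marrow cells from which red cells, platelets, granulocytes and monocytes form. Total RNA was sequenced in 2 libraries of 1 group, biological replicates 1 and 2, each built by the ScriptSeq method from 100 ng of rRNA-depleted RNA. The cells were primary cells of adult male C57BL/6J mice aged 5 to 6 weeks, with no treatment or altered allele in the labels. Both libraries carry the same donor label, so their spread may be partly technical. A single group allows no test between conditions, and no p-value is given.

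Ras proteins are small GTPases that signal while bound to GTP. Receptor kinases such as Kit recruit exchange factors, which load Ras with GTP, and GTPase-activating proteins return it to the inactive form. Active Ras turns on the RAF, MEK and ERK kinases, and in blood-forming cells this route carries growth signals of cytokines. All 8 genes belong to those mutated in Ras-driven blood disease or in the inherited disorders of the pathway, and Nf1, Ptpn11, Cbl and Nras are known from juvenile myelomonocytic leukaemia.

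The libraries differed in depth, with 28158803 expected counts in replicate 1 and 84041054 in replicate 2, 2.98 times as many. Expected counts are estimated reads per gene. TPM is corrected for length and is relative to all entries of the table, and nuclear protein-coding genes took 20.1% of it in replicate 1 and 21.5% in replicate 2. Where no read was counted, up to 3 counts remain possible, a limit for counting error only. On the scale of CPM, which divides expected counts by the size of their library, this is 0.107 for replicate 1 and 0.0357 for replicate 2. The label of the cells was checked against 8 progenitor markers, and all 8 had at least 1 TPM in both libraries. Cd34 stood at 125 and 121 TPM, Kit at 33.5 and 39.8 TPM and the granule enzyme gene Mpo at 314 and 399 TPM. Of 16 markers of other cells, Pecam1, which is also made by blood progenitors, was the 1 gene at 1 TPM or more in both libraries. There were 7 with 0 counts in both, among them Pax5, Cd3e and Cdh5, and 5 with at least 10 counts in both. Il7r, a lymphoid progenitor marker, had 218 and 76 counts, at 0.96 and 0.13 TPM, and so differed between the libraries. Ly6a, a stem cell marker, had 32 and 107 counts, and Ly6g, a neutrophil marker, had 23 and 0. Rescaled to nuclear protein-coding genes, Il7r stood at 4.78 and 0.604 TPM and Ly6a at 3.43 and 3.39 TPM. The summed TPM of these 16 genes was 11.1 in replicate 1 and 14.0 in replicate 2. Most of it was Pecam1, at 8.76 and 12.6 TPM, so the sum is no measure of other cells.

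All 8 genes were expressed in both libraries, at 520 to 4089 expected counts in replicate 1 and 1282 to 12789 in replicate 2. Every one reached 1 TPM in both, where 42.5% of 21461 nuclear protein-coding genes did. Their median was 6.47 TPM in replicate 1 and 6.14 TPM in replicate 2, or 6.31 ± 0.233 (SD, n = 2). Over nuclear protein-coding genes at 1 TPM or more the median was 6.46 and 7.22 TPM. Ranked among all nuclear protein-coding genes, the 8 lay above 66.5% to 91.1% of genes in replicate 1 and above 67.2% to 95.3% in replicate 2. In bulk RNA, fewer cells that express a gene and less RNA per cell cannot be told apart.

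**Figure D1:**
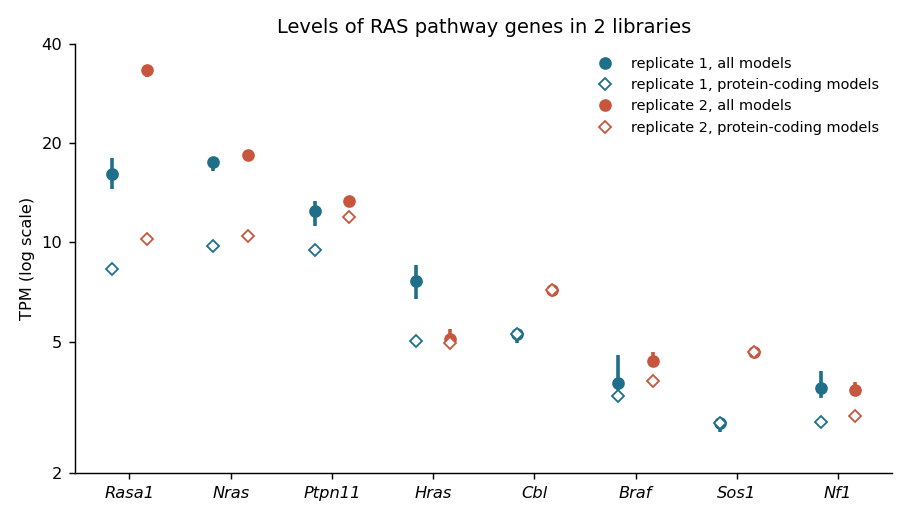
Levels of the 8 genes in TPM on a log axis, for replicate 1 (blue) and replicate 2 (red). Filled circles are the deposited gene TPM with its deposited interval as a bar, and open diamonds are the summed TPM of the gene's protein-coding models. Rasa1 stood at 16.1 and 33.3 TPM over all models but at 8.29 and 10.2 TPM over its protein-coding model, and the filled and open symbols of Cbl and Sos1, with 1 model each, coincide.

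In several of the genes the reads were divided among transcript models that differ in a short coding stretch and in other bases. The stretches are printed here to describe the models, and the shares reported below do not rest on them alone. They were read from the GENCODE M21 transcripts (GRCm38), 5′ to 3′ along the gene, with the stretch in capitals and 15 neighbouring bases in lower case on each side. The Nras sequence ends at its stop codon and so has neighbouring bases on the 5′ side alone.
Ptpn11, 12 bases of exon 11 of 16 in Ptpn11-201, chr5:121144685-121144696, minus strand: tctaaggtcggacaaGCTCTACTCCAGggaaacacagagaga
Nf1, 63 bases that form exon 31 of 58 in Nf1-201, chr11:79463233-79463295, plus strand: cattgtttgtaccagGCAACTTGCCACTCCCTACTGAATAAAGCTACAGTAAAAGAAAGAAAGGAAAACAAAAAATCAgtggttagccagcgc
Braf, 36 bases of exon 10 of 22 in Braf-201, chr6:39648821-39648856, minus strand: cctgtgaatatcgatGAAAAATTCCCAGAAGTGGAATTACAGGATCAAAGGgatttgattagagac
Braf, 120 bases of exon 12 of 22 in Braf-201, chr6:39646725-39646844, minus strand: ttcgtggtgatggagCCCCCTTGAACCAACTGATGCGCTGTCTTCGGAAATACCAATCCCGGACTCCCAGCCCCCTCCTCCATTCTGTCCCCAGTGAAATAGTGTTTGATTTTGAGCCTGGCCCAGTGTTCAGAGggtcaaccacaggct
Nras, the start of exon 2 of 9 in Nras-202 up to its stop codon, chr3:103059939-103059968, plus strand: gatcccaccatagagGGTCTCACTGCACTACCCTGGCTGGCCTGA
The Ptpn11, Nf1 and Braf stretches hold 4, 21, 12 and 40 codons in that order, so each keeps the reading frame. The Nras stretch is the part of an added exon of 96 bases that precedes and holds an early stop codon.

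Of the GTPase genes, Nras was the higher. Nras (ENSMUSG00000027852.14, chr3:103058285-103067914, plus strand) had 4025 expected counts and 17.5 TPM in replicate 1, and 10994 counts and 18.4 TPM in replicate 2. Its mean was 17.9 ± 0.636 TPM (SD, n = 2), and its deposited intervals, 16.5 to 17.9 TPM and 17.8 to 18.7 TPM, overlapped. Hras (ENSMUSG00000025499.18, chr7:141189105-141194005, minus strand) had 520 counts and 7.66 TPM in replicate 1, and 1282 counts and 5.11 TPM in replicate 2, a mean of 6.38 ± 1.8 TPM. Nras was therefore 2.28 and 3.6 times as high as Hras per length, with no overlap between the libraries of the 2 genes.

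The Nras reads were divided between 2 models in almost the same way in both libraries. Nras-201, the protein-coding model, took 55.6% and 57.0% of the gene's TPM, at 9.73 TPM in replicate 1 and 10.5 TPM in replicate 2. Nras-202 took the other 44.4% and 43.0%, at 7.76 and 7.91 TPM. This model carries the added exon printed above and is annotated as a target of nonsense-mediated decay, the pathway that degrades RNA with an early stop codon. By expected counts its share was lower, 22.6% and 21.7%, since the model is 1749 bases long against 4416 for Nras-201. The models also differ in their ends, with 3727 bases after the coding part in Nras-201 and 1589 in Nras-202, so the share does not rest on the added exon alone. These ends are those of M21, where Nras-201 is 4470 bases long.

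Hras differed between the libraries in a model of the same class. The leading model, Hras-202, stood at 4.4 TPM in replicate 1 and 3.93 TPM in replicate 2, and the 4 protein-coding models summed to 5.01 and 4.94 TPM. Hras-206, a nonsense-mediated decay model of 447 bases with an incomplete start, took 29.5% of the gene's TPM in replicate 1 and 2.9% in replicate 2. It was read from 40.15 and 7.27 expected counts, with intervals of 1.54 to 3.06 TPM and 0.0431 to 0.296 TPM that did not overlap. The gene's effective length went from 891 bases in replicate 1 to 1287 in replicate 2. Over protein-coding models alone, Nras was 1.94 and 2.12 times as high as Hras.

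**Figure D2:**
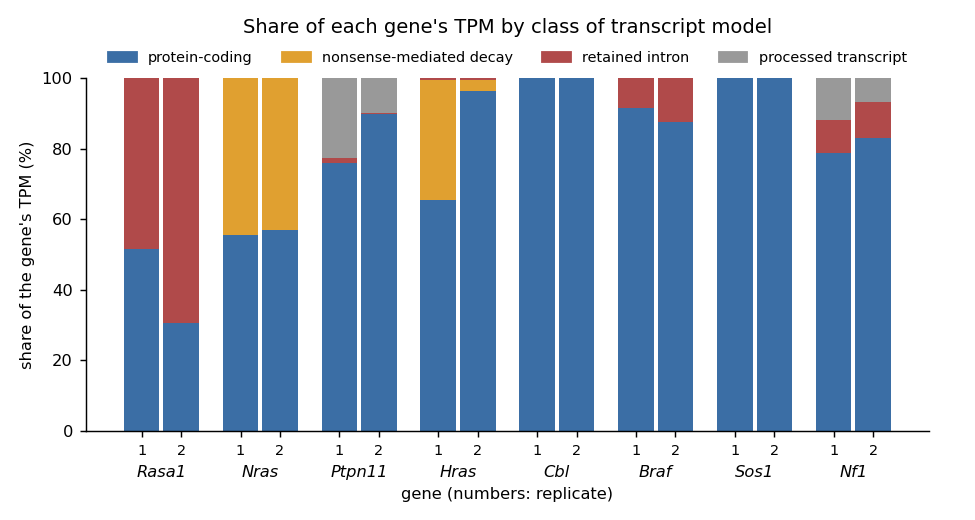
Share of each gene's TPM, in percent, that fell on protein-coding, nonsense-mediated decay, retained intron and processed transcript models, with replicates 1 and 2 side by side. Rasa1 had the lowest protein-coding share in both libraries, 51.6% and 30.7%, Nras kept nearly the same division, and Sos1 and Cbl have 1 model each.

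Sos1 (ENSMUSG00000024241.7, chr17:80393751-80480453, minus strand) encodes the exchange factor that Grb2 brings to activated receptors. It had 1885 expected counts and 2.84 TPM in replicate 1, and 7918 counts and 4.66 TPM in replicate 2, a mean of 3.75 ± 1.29 TPM. The intervals, 2.67 to 2.92 TPM and 4.52 to 4.73 TPM, did not overlap, and the gene has 1 model, so no division between models enters this difference. Its close relative Sos2 was higher in both libraries, at 8.36 and 13.3 TPM, or 2.94 and 2.86 times Sos1. Over protein-coding models Sos2 was 1.99 and 1.45 times as high.

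Of the 2 GTPase-activating proteins, Rasa1 was higher than Nf1 in both libraries. Rasa1 (ENSMUSG00000021549.14, chr13:85214780-85289130, minus strand), which binds activated receptors through SH2 domains, had 3013 expected counts in replicate 1 and 10736 in replicate 2, or 107 and 128 CPM. Its TPM was 16.1 in replicate 1 and 33.3 in replicate 2, with intervals of 14.5 to 18.0 and 31.8 to 34.5 TPM, and its mean was 24.7 ± 12.2 TPM. Replicate 2 was thus 2.07 times as high by TPM but 1.2 times as high by CPM.

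The difference in Rasa1 TPM lay in short models. The protein-coding model Rasa1-201, 4563 bases long, stood at 8.29 and 10.2 TPM, and the 8 retained intron models summed to 7.78 and 23.1 TPM. One of these, Rasa1-206, 676 bases long, went from 34.23 to 1082.47 expected counts and from 0.97 to 11.7 TPM, and it led the gene by TPM in replicate 2. By counts the retained intron models held 8.7% of the gene in replicate 1 and 19.2% in replicate 2, against 48.4% and 69.3% by TPM. The effective length of the gene fell accordingly, from 2457 to 1657 bases. The size range in the labels, which has no unit, was 200 to 1000 in replicate 1 and 187 to 1606 in replicate 2, and the part of these ranges in the counts of short models was not tested.

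Nf1 (ENSMUSG00000020716.16, chr11:79339693-79581612, plus strand) encodes neurofibromin, the Ras inhibitor lost in neurofibromatosis. It had 1815 expected counts and 3.63 TPM in replicate 1, and 5072 counts and 3.57 TPM in replicate 2. Its mean of 3.6 ± 0.0424 TPM had the smallest SD of the 8 genes. Nf1 stood at 0.226 of the Rasa1 TPM in replicate 1 and at 0.107 in replicate 2, and over protein-coding models at 0.345 and 0.291.

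The level of Nf1 was nearly the same in the libraries while its division among models was not. Nf1-201, which holds the 63 bases printed above, stood at 1.31 and 1.09 TPM with overlapping intervals. Nf1-202, which lacks them, stood at 0.16 TPM in replicate 1 and 0.86 TPM in replicate 2, or 4.4% and 24.0% of the gene, with intervals of 0.0591 to 0.518 and 0.746 to 0.991 TPM. The stretch is the alternative exon in the domain of neurofibromin that acts on Ras, and the form with it is known as the weaker activator of GTP hydrolysis. Nf1-201 and Nf1-202 differ elsewhere too, with 3216 and 546 bases after the coding part and 2733 bases found in Nf1-201 alone, so these values do not measure use of the exon by itself. Nf1-206, a partial model with an incomplete start, led in replicate 1 with 38.3% of the gene's TPM and had 28.5% in replicate 2.

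Ptpn11 (ENSMUSG00000043733.14, chr5:121130533-121191397, minus strand) encodes SHP2, a phosphatase that promotes Ras activation downstream of receptors. It had 4089 expected counts and 12.4 TPM in replicate 1, and 12789 counts and 13.3 TPM in replicate 2, a mean of 12.9 ± 0.629 TPM with overlapping intervals. Its leading model changed between libraries, from Ptpn11-201 with 51.9% of the gene's TPM in replicate 1 to Ptpn11-202 with 52.9% in replicate 2. Ptpn11-201 stood at 6.46 TPM (interval 5.0 to 7.24) and 4.93 TPM (4.24 to 5.68), and these intervals overlapped. Ptpn11-202 stood at 3.01 TPM (2.09 to 4.33) and 7.05 TPM (6.18 to 7.62), and these did not. Within their exons the models share 5523 bases, and 12 bases, those printed above, are in Ptpn11-201 alone and 76 in Ptpn11-202 alone. These exons are those of M21, where Ptpn11-201 is 5535 bases long, and it was quantified at 5610 bases in M4, so the bases that told the models apart may differ from these. The related phosphatase gene Ptpn6, which encodes SHP1 of blood cells, was 3.91 and 5.22 times as high as Ptpn11, at 48.7 and 69.6 TPM. The interval of Ptpn6 in replicate 1 was wide, 47.8 to 76.3 TPM. Over protein-coding models Ptpn6 was 4.3 and 3.79 times as high as Ptpn11.

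Cbl (ENSMUSG00000034342.9, chr9:44142976-44234049, minus strand) encodes a ubiquitin ligase that sends activated receptors for degradation. It has 1 model and had 1960 expected counts and 5.28 TPM in replicate 1, and 6811 counts and 7.17 TPM in replicate 2, a mean of 6.22 ± 1.34 TPM. The intervals, 4.97 to 5.43 and 6.94 to 7.27 TPM, did not overlap. Cbl was 2.98 and 3.4 times as high as its relative Cblb, and Cblc, known from epithelia, had 0 counts in both libraries.

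Braf (ENSMUSG00000002413.15, chr6:39603237-39725463, minus strand) encodes the RAF kinase most often mutated in cancer. It had 1913 expected counts and 3.74 TPM in replicate 1, and 7057 counts and 4.36 TPM in replicate 2, a mean of 4.05 ± 0.438 TPM with overlapping intervals. The full-length model Braf-201, which holds both alternative stretches printed above, led in both libraries, at 2.25 TPM (60.2% of the gene) and 3.49 TPM (80.2%). Braf-202, which lacks both and has an incomplete start and no bases after the coding part, stood at 1.18 TPM (31.6%) in replicate 1 and 0.32 TPM (7.4%) in replicate 2. These stretches are best known from forms of Braf in brain. Of the exonic bases, 7594 are in Braf-201 alone and 119 in Braf-202 alone, and Braf-201 has 7145 bases after its coding part, so the shares do not isolate the stretches.

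Araf, which encodes a related kinase, was higher than Braf in both libraries. It stood at 9.7 and 7.37 TPM, 2.59 and 1.69 times Braf. Over protein-coding models Araf was 2.54 and 1.67 times as high as Braf.

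By mean TPM the order was Rasa1, Nras, Ptpn11, Hras, Cbl, Braf, Sos1 and Nf1. The libraries of Rasa1 and Nras overlapped, as did those of Hras and Cbl, of Braf and Sos1, and of Sos1 and Nf1, while the other neighbours did not overlap. Over protein-coding models the order was Ptpn11, Nras, Rasa1, Cbl, Hras, Sos1, Braf and Nf1. There Ptpn11, Nras and Rasa1 overlapped from each to the next, as did Sos1 and Braf, so Rasa1 was first by the mean over all models and not over protein-coding models. In replicate 1 Nras, at 17.5 TPM, lay above Rasa1, at 16.1 TPM, also over all models.

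Whether the 8 genes differed between the libraries was read from 12704 genes whose expected count averaged 50 or more, as replicate 2 over replicate 1. By CPM scaled with TMM none of the 8 differed 2-fold, where 10.4% of genes did, and their ratios ran from 0.828 for Hras to 1.41 for Sos1. By TPM 1 of the 8, Rasa1, differed 2-fold, where 14.3% of genes did. The median log2 ratio over genes was 0.02 by CPM and 0.22 by TPM, so a TPM ratio has to be read against that shift. Relative to the TPM median, the log2 ratios of Nras (0.07), Ptpn11 (0.10) and Nf1 (-0.02) lay below it, Braf (0.22) lay at it, and Cbl (0.44), Sos1 (0.71) and Rasa1 (1.05) lay above it. Hras lay farthest below, at -0.58. Nras was lower in replicate 2 by CPM (log2 ratio -0.12) and higher by TPM (0.07). Against the medians of 0.02 and 0.22 it lay below the median of genes by both measures.

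**Figure D3:**
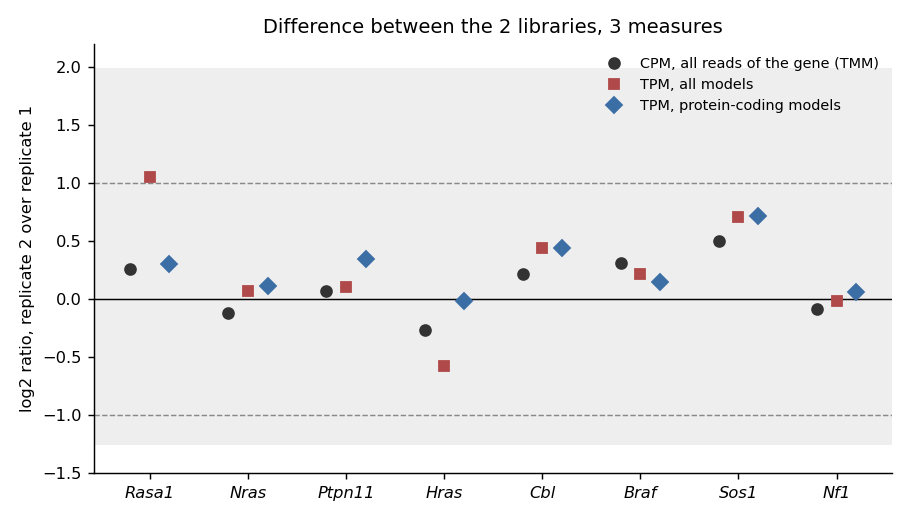
Log2 ratio of replicate 2 over replicate 1 for each of the 8 genes by 3 measures: CPM with TMM scaling (circles), TPM over all models (squares) and TPM over protein-coding models (diamonds). The grey band is the middle 95% of all 12704 genes by CPM, from -1.25 to 1.98, and dashed lines mark 2-fold; the TPM of Rasa1, at 1.05, is the 1 point beyond a dashed line.

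The deposited intervals of gene TPM did not overlap between libraries for 4 of the 8 genes, Rasa1, Hras, Cbl and Sos1, where they did not for 64.8% of the 12704 genes. Of the 37 transcript models of the 8 genes, 20 had intervals that did not overlap, so such a gap was common among these models. The same share over all transcript models was not computed. These intervals describe the estimate within 1 library, and their level was not given in the sources used here.

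Of the 6 genes with several models, 3 were led by the same model in both libraries by TPM, Nras, Hras and Braf, and 3 were not, Nf1, Rasa1 and Ptpn11. The change in Nf1 was close to a tie. Nf1-206 and Nf1-201 stood at 1.39 and 1.31 TPM in replicate 1 and at 1.02 and 1.09 TPM in replicate 2. Within each library the intervals of these models overlapped. Of 7347 genes with several models and at least 100 expected counts in each library, 76.0% were led by the same model by TPM. By expected counts, which are not divided by length, Nf1-201 led Nf1 in both libraries with 64.4% and 49.2% of the gene's counts, and Rasa1-201 led Rasa1 with 91.3% and 80.8%. With the 2 genes of 1 model included, 7 of the 8 were then led by the same model in both libraries, against 5 by TPM, and Ptpn11 was not. The median share of TPM on models outside the protein-coding class was 6.53% in replicate 1 and 8.5% in replicate 2 over those genes, with upper quartiles of 31.8% and 32.1%. Rasa1 and Nras lay above the upper quartile in both libraries, and Hras did so in replicate 1 alone.

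Genes that overlap the 8 on the genome were looked up because reads of a gene and of its antisense partner cannot be told apart unless strand was used in counting, which was not given in the sources used here. Braf shares 146 exonic bases with Ndufb2 on the opposite strand, which had 585 and 1109 expected counts, and Rasa1 shares 12 with Ccnh, which had 1771 and 3709. The large introns of Nf1 hold Evi2a, Evi2b and Omg on the opposite strand, with no exonic base shared. Evi2b, a membrane protein gene of blood cells, stood at 14.8 and 15.7 TPM, 4.08 and 4.4 times Nf1, and Evi2a at 4.51 and 3.02 TPM. The same stretch holds Evi2, with 183.38 and 1010.54 expected counts, and Evi2b had fractional counts, so the division of reads between these genes is uncertain. Omg, a myelin protein gene, had 0 counts in replicate 1 and 56 in replicate 2. All 8 genes had whole expected counts in both libraries, within 0.005, as 85.4% of the 12704 genes did. Fractional counts arise where an estimate divides reads between genes.

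Other pathway genes, 73 in 7 lists, were read in the same way, and 51 of them had at least 1 TPM in both libraries. Among nuclear protein-coding genes 42.5% did, the share to set beside the count of each list. Of the Ras-related GTPases, 8 of 11 did, with list medians of 1.8 and 2.23 TPM. Rap1b and Rap1a, which act in adhesion, led at 40.1 and 43.6 TPM and at 25.8 and 26.1 TPM, and so lay above Nras in both libraries. Rheb, the activator of mTORC1, stood at 9.24 and 7.78 TPM. The close relatives of the Ras genes were low: Rras2 stood at 1.53 and 1.19 TPM, Rras had 2 and 39 counts, and Mras had 0 and 73.

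Of 9 exchange factor genes besides Sos1, 3 reached 1 TPM in both libraries, where 42.5% of nuclear protein-coding genes did. At least 10 counts in both were found for 5 of the 9, and the list medians were 0.13 and 0.08 TPM. Rasgrp2, whose product acts mainly on Rap1, led at 28.6 and 25.8 TPM, 10.1 and 5.53 times Sos1. The other Rasgrp genes were low: Rasgrp1, which activates Ras in lymphocytes, had 1 and 0 counts, Rasgrp3 had 24 and 1, and Rasgrp4 had 35 and 59. Rapgef1, an exchange factor for Rap1, stood at 5.29 and 8.98 TPM, and Rasgrf1, known from neurons, had 0 counts in both.

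Among GTPase-activating proteins and Spred partners, 6 of 11 reached 1 TPM in both libraries, with list medians of 1.15 and 2.27 TPM. Rasa3, which acts on Ras and Rap1, led at 11.5 and 21.2 TPM, 3.17 and 5.94 times Nf1, and over protein-coding models 2.27 and 3.65 times. Rasa2 was far below Rasa1, at 1.15 and 2.5 TPM. Spred1, which brings neurofibromin to the membrane, had a mean of 9.94 ± 0.092 TPM and Spred2 at 1.29 and 2.1 TPM. Spred1 was thus above Nf1 in both libraries.

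Of the adaptors, ubiquitin ligases and phosphatases, 10 of 13 reached 1 TPM in both, led by Ptpn6, with list medians of 3.34 and 4.05 TPM. Crk, an adaptor with SH2 and SH3 domains, stood at 8.12 and 11.5 TPM and Grb2, the partner of Sos1, at 7.25 and 11.9 TPM. Among the RAF, MEK and ERK module 11 of 12 did, with list medians of 10.4 and 11.6 TPM. The phosphatase gene Ppp1ca, whose product acts with Shoc2 on RAF, led at 68.6 and 90.3 TPM, and Pebp1, an inhibitor of RAF, stood at 26.7 and 37.4 TPM. Ksr2 had 37 and 8 counts.

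Feedback inhibitors reached 1 TPM in both libraries in 4 of 8 cases, with list medians of 1.4 and 1.74 TPM. Dusp6, the ERK phosphatase, was the highest at 5.89 and 7.43 TPM, and Spry4 stood at 0.23 and 0.09 TPM. All 9 genes of lipid modification and trafficking of Ras proteins did, with list medians of 2.94 and 3.62 TPM. Golga7, a subunit of the Ras palmitoyltransferase, stood at 28.1 and 30.7 TPM, and Fnta, the shared subunit of farnesyltransferase, at 13.2 and 13.7 TPM. Fntb, the other subunit, was lower, at 1.03 and 1.92 TPM.

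**Figure D4:**
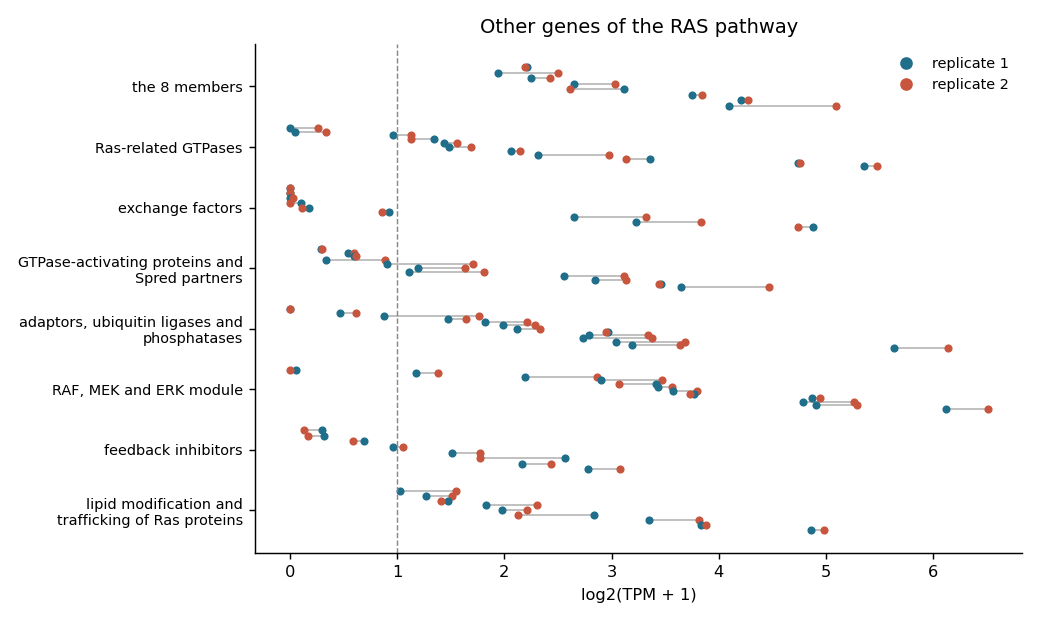
Levels of the 8 genes and of the 73 genes of 7 pathway lists as log2(TPM + 1), with replicate 1 in blue, replicate 2 in red and a line joining the libraries of a gene. The dashed line marks 1 TPM: all 8 genes lie to the right of it in both libraries, as do 51 of the 73, and 3 of the 9 exchange factor genes.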

How the data were processed

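For each library the authors deposited a table of genes and a table of transcripts, and the readme names mm10 and GENCODE M4. The aligner, the quantifier, the use of strand and the level of the intervals are not given in the sources used here. Deposited values, per the file headers, were expected counts, TPM, posterior mean TPM and effective length in bases. The interval bounds of TPM, a signal on the TPM scale, were also deposited by the authors. Names, models and sequences came from GENCODE M21 on GRCm38, matched by Ensembl ID for 42462 of 43346 genes, and Spry3 was not analysed here. Counts were rounded and scaled with TMM in edgeR 4.0.16 (DESeq2 1.42.0 as the alternative, R 4.3.3), with a prior count of 0.5. Transcript shares were computed from transcript TPM with pandas 2.3.3 and numpy 2.4.6, and figures drawn with matplotlib 3.10.9, under Python 3.11.15. The ratio step was tested on simulated data for replicate 2 over replicate 1 on 43346 genes: of 196 genes changed 8-fold 100% passed 2-fold, and 2.12% of unchanged genes did. The simulated spread was assumed and not fitted to these libraries, in which 10.4% of genes passed 2-fold by CPM. The 2.12% is therefore not their error rate, and changes near 2-fold were not simulated. The 8 genes, all named, and the lists were chosen with earlier results of these data known. Of each list the 3 highest and 3 lowest genes by mean TPM and close relatives of the 8 could be named, with overlapping genes and cell markers. Some genes of the lists are not reported here.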

Additional observations from a re-analysis of the deposited data

How the results depend on the processing

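Of the recomputed summary values, 32 stayed within the spread of the libraries or within 1.5 times a count, and 9 did not. Of the recomputed levels of single genes, 27 did and 5 did not. Leaving out 1 of 2 libraries always moves a mean level or ratio by less than its SD, so those values could only stay. The same holds for the protein-coding values of Cbl and Sos1, which have 1 model each. It also holds for the count of 2-fold genes without a filter on low counts. These counts of stable values are therefore no measure of robustness. The median of the 8 genes was 30.4 TPM when TPM was rescaled to nuclear protein-coding genes, and was 5.6 TPM over protein-coding transcripts, an alternative added after Rasa1 was seen. At least 5 TPM was reached by 5 of the 8 genes in both libraries. The count of genes that differed 2-fold, 0 by CPM, was 1 by TPM and 1 by posterior mean TPM. The log2 ratio of Nras over Hras, 1.52 ± 0.46 by TPM, was 3.03 by CPM, which is not corrected for length, and 1.02 over protein-coding transcripts. That of Nf1 over Rasa1, -2.68 ± 0.76 by TPM, was -0.91 by CPM and -1.66 over protein-coding transcripts. Neither ratio changed sign. The cause of these changes was not tested beyond the construction of each alternative. With 2 libraries of unequal depth, levels rest on 1 difference each, and shares of short models rest on few counts in replicate 1.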
